A study of Mus musculus with 6 samples.

Results

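The genes described here make cholesterol or control its synthesis through the transcription factor SREBP-2. The list holds 28 genes, from the mevalonate enzymes to the last sterol reductase, with the proteins that process SREBP-2, a sterol carrier and a regulator of the LDL receptor. Members were all probe sets whose platform gene symbol was exactly one of the 28, which gave 59 of 45101 probe sets on the array and covered 27 genes. Acat2, the cytosolic thiolase that starts the pathway, had no such probe set and was not analysed here. RNA abundance was measured in whole liver of female mice on a C57 background, with 3 arrays from SRC-2-/- (SRC-2 null) animals and 3 from wild-type animals. The ovaries of all mice, null and wild-type, were removed at 6 weeks of age, and livers were taken 2 weeks after that under Avertin anesthesia. The allele, the feeding state and the time of day are not in the labels. SRC-2, the product of Ncoa2, is a coactivator that nuclear receptors recruit to their target genes, and the 2 genotypes are compared to see which liver transcripts differ with its loss.

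SREBP-2 is made as a precursor in the membrane of the endoplasmic reticulum, bound to its escort SCAP. When membrane cholesterol is low, SCAP carries it to the Golgi, where a pair of proteases encoded by Mbtps1 and Mbtps2 release the part that enters the nucleus and switches on the genes of sterol synthesis. When sterols are plentiful, INSIG proteins hold the complex back. The liver makes cholesterol for membranes, bile acids and lipoproteins, and its enzymes for the pathway are classic joint targets of SREBP-2.

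The promoters of members that fell and of members that did not pass the test are set side by side, because shared promoter motifs are the usual description of genes that respond to SREBP-2 together. SREBP proteins bind sterol regulatory elements (SREs) beside the factors NF-Y, which binds the CCAAT box, and SP1, which binds the GC box. Each line gives the 150 bases before the transcription start, 5′ to 3′ on the gene's strand, from RefSeq on GRCm38.p6. Capitals mark matches, on either strand, to TCACNCCAC (an SRE core), CCAAT and GGGCGG (a GC box). The first 4 genes fell in SRC-2 null liver, and Hmgcs1, Mvk and Ebp did not pass the test. No 2 of the 3 motifs share letters in these stretches.
Idi1: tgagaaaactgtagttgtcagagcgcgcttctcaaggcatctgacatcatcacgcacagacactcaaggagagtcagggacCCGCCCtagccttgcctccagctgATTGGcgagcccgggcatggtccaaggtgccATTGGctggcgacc
Mvd: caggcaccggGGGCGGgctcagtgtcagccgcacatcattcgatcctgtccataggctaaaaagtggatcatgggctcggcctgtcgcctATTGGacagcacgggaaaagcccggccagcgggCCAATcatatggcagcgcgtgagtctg
Cyp51: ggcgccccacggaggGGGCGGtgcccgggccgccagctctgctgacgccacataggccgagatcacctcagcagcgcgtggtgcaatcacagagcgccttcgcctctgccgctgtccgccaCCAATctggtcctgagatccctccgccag
Nsdhl: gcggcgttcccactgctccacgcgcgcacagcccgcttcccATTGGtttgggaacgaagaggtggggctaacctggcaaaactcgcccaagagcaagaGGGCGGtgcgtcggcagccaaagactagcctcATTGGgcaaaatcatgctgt
Hmgcs1: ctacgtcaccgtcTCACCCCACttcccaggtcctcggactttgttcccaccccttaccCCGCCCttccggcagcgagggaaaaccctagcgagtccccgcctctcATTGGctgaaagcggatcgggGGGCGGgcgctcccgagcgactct
Mvk: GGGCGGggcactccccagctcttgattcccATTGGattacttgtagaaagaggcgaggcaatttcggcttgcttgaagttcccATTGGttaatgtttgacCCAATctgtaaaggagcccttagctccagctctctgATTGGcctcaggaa
Ebp: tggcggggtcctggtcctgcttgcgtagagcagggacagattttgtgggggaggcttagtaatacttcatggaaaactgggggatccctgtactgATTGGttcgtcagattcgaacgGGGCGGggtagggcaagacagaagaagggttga
The stretches lie at chr13:8885456-8885605 (plus strand) for Idi1, chr8:122443423-122443572 (minus strand) for Mvd, chr5:4104698-4104847 (minus strand) for Cyp51 and chrX:72918371-72918520 (plus strand) for Nsdhl. Those of the other genes lie at chr13:119690201-119690350 (plus strand) for Hmgcs1, chr5:114444119-114444268 (plus strand) for Mvk and chrX:8193513-8193662 (minus strand) for Ebp. All 7 are upstream of the annotated start of their gene.

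The whole windows in the RefSeq table run from 250 bases before to 50 bases after each start and matched 24 of the 28 members. Fdps, Fdft1, Sqle and Stard4 had no window in it. A CCAAT box stood in a window of 20 of the 24 members (83.3%), against 42.3% of 17491 protein-coding genes with a window. A GC box stood in 21 (87.5%), against 49.2% of the protein-coding genes. The SRE core was found in Hmgcs1 alone, from base -137 to base -129, and in 1.41% of protein-coding genes. Only the letters TCACNCCAC were searched, so an SRE with other letters would stay unmarked. A window without a match is therefore not shown to lack an SRE. These matches are letters in a window and not shown binding sites. Each of these 2 boxes stood in most members. Whether their presence differs between members that fell and the others was not tested. All 4 members that fell and had a window held both boxes. So did most members that did not pass, Mvk and Ebp among them. Scap, Mbtps1, Mbtps2, Pmvk and Ggps1, which did not pass, lacked a CCAAT box, a GC box or both. Fdps and Sqle, which also fell, could not be read.

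**Figure D1:**
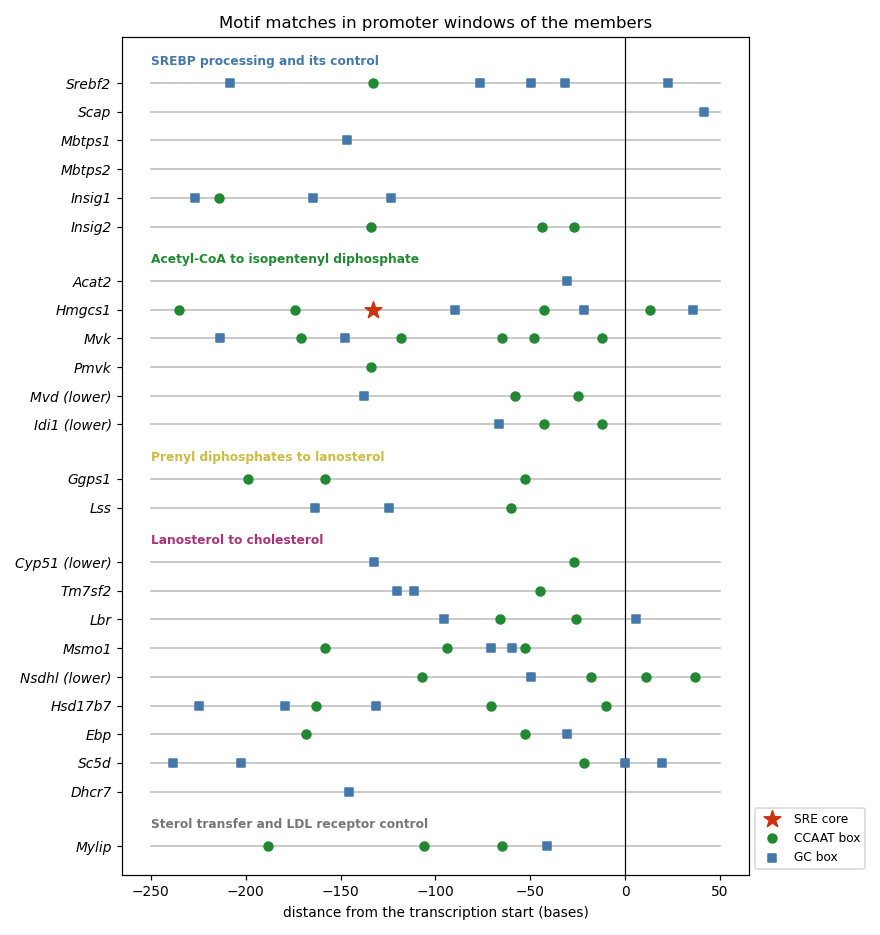
Matches to the SRE core (star), CCAAT box (circle) and GC box (square) in the first promoter window of 24 members, by distance in bases from the transcription start, from 250 bases before to 50 after it. Members marked lower fell in SRC-2 null liver, and CCAAT boxes stand before the start both in these and in members that did not pass the test.

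In SRC-2 null liver, 6 of the 19 biosynthetic enzymes measured fell: Idi1, Fdps, Cyp51, Nsdhl, Mvd and Sqle. The falls ranged from 2.44-fold for Cyp51 to 1.38-fold for Sqle, and no enzyme rose. Srebf2, Scap, both protease genes and the Insig genes did not pass the test. Over the 27 members tested, 22.2% were lower, while 3.13% of all 11895 genes tested were lower, 1.55% were higher and 4.67% were called in either direction. A gene was called when its limma adjusted p, with Benjamini-Hochberg adjustment over all 11895 genes, was under 0.05, and 0 members were called higher. At an unadjusted p under 0.05, 12 members were lower and 0 higher, against 9.58% and 7.58% of all genes. The median log2 fold change of the members was -0.23, that of all genes tested was 0.00, and 19 of 27 members lay below 0, as did 49.4% of all genes.

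The values are log2 expression values made by the authors with RMA, so that a difference of 1 is a 2-fold difference. For each gene the brightest probe set was used, and genes whose mean reached 4.21 (the median over the array's probe sets) were tested. Ncoa2 was 5.41-fold lower in the null arrays (log2 fold change -2.44, SE 0.20, limma adjusted p = 0.000354), which goes with the labels. With the mean of all its probe sets the fall of Ncoa2 was smaller (log2 fold change -1.20, limma adjusted p = 3.01e-05). The hepatocyte markers stayed close between genotypes, with 0 of 8 called and a median log2 fold change of 0.01. Replicate 3 of both genotypes stood apart from replicates 1 and 2: deviations from the group mean correlated at 0.517 between the replicate 3 arrays of the genotypes, across genes. For several members the values within replicates 1 and 2 and within replicate 3 are given as well. The members' median log2 fold change was -0.21 within replicates 1 and 2 and -0.27 within replicate 3. With the replicate number as a block, 10 members were lower, the 6 above with Lbr, Sc5d, Insig1 and Fdft1. The same fit called 6.99% of all genes, and 4.41% of all genes lower, so the count rose for the whole array as well.

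**Figure D2:**
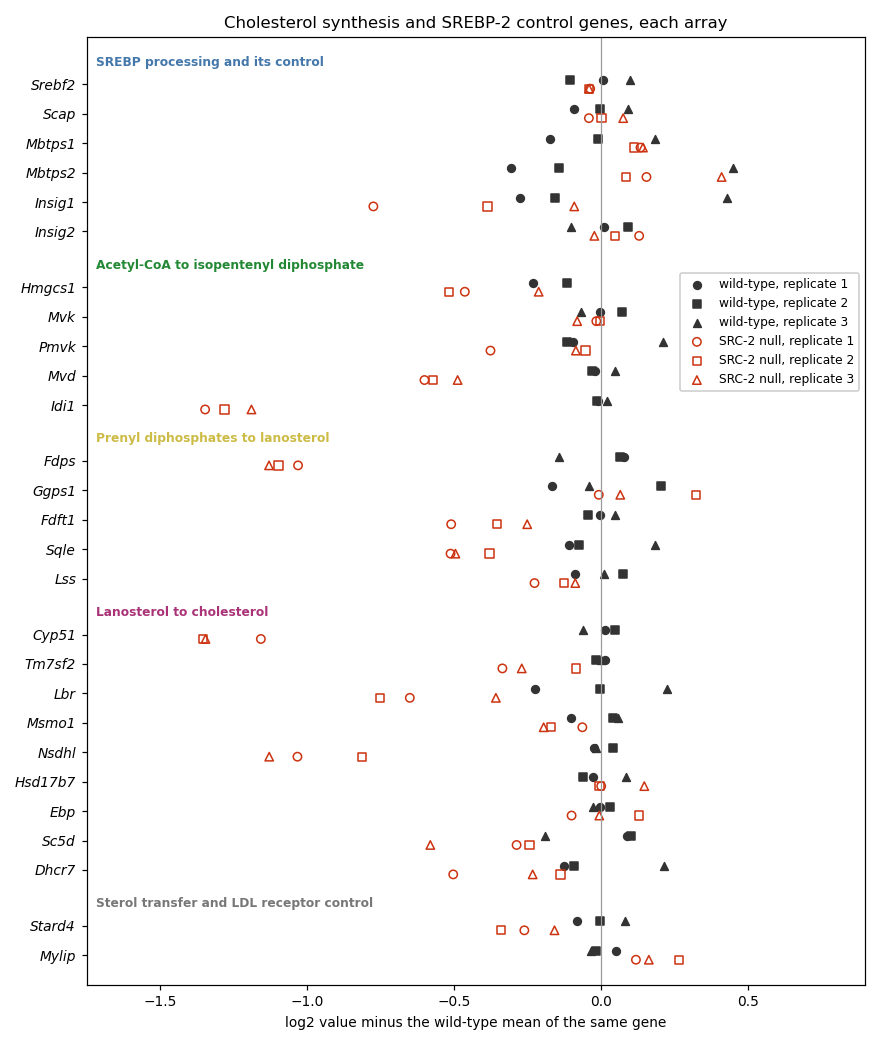
Log2 value of each array minus the wild-type mean of the same gene, for 27 members grouped by pathway step; filled black symbols are wild-type and open red symbols SRC-2 null arrays, with 1 shape for each replicate number. The null arrays of Idi1, Fdps, Cyp51 and Nsdhl stand clear of the wild-type arrays, while those of Srebf2, Scap, Mvk, Hsd17b7 and Ebp overlap them.

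The first section of the pathway turns acetyl-CoA into isopentenyl diphosphate, the building block of all isoprenoids. Of 5 members measured in it, Idi1 and Mvd fell and 3 did not pass. Idi1, which encodes the isomerase that interconverts the isoprenoid building blocks, read 8.82, 8.82 and 8.85 on the wild-type arrays and 7.48, 7.55 and 7.64 on the null arrays. The groups lay far apart, with SDs of 0.02 and 0.08 within them. Idi1 was 2.42-fold lower in null liver (log2 fold change -1.27, SE 0.08, limma adjusted p = 7.73e-05).

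Mvd, the decarboxylase that yields isopentenyl diphosphate, read 6.11, 6.10 and 6.18 in wild-type and 5.53, 5.55 and 5.64 in null liver with its brightest probe set, 1448663_s_at. All null arrays were below all wild-type arrays, and the level was 1.47-fold lower (log2 fold change -0.55, SE 0.08, adjusted p = 0.00612 in limma). Its other probe set, 1417303_at, read 5.57, 5.25 and 5.36 in wild-type and 5.49, 5.43 and 5.27 in null liver. Those arrays overlapped, with a log2 fold change of 0.00 (adjusted p = 0.995 over all probe sets). The call for Mvd therefore rests on 1 of 2 probe sets, and the name of that one ends in _s_at, which marks probe sets that can detect several transcripts.

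Hmgcs1, the synthase that joins acetoacetyl-CoA and acetyl-CoA, did not pass with its brightest probe set, 1433443_a_at. That probe set read 9.95, 10.07 and 10.52 in wild-type and 9.72, 9.66 and 9.97 in null liver. Null replicate 3 was just above the lowest wild-type array, and the log2 fold change was -0.40 (SE 0.16, limma adjusted p = 0.244). It was -0.32 within replicates 1 and 2 and -0.56 within replicate 3. The other 3 Hmgcs1 probe sets above the filter had log2 fold changes of -0.38, -0.43 and -0.51, and their null arrays lay below all wild-type arrays. With the mean of all its probe sets, Hmgcs1 was called lower (log2 fold change -0.40, limma adjusted p = 0.032).

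Mvk and Pmvk encode the kinases that phosphorylate mevalonate in turn. Mvk read 6.46, 6.53 and 6.39 in wild-type and 6.45, 6.46 and 6.38 in null liver. Its groups overlapped, and the 95% interval of its log2 fold change ran from -0.22 to 0.15. Pmvk had a log2 fold change of -0.17, with an interval from -0.46 to 0.12, and values of -0.11 within replicates 1 and 2 and -0.30 within replicate 3.

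The middle section condenses isopentenyl units to farnesyl diphosphate and squalene, and closes squalene to lanosterol. Of its 5 members, Fdps and Sqle fell and Fdft1, Lss and Ggps1 did not pass. Fdps, farnesyl diphosphate synthase, read 9.11, 9.10 and 8.89 in wild-type and 8.0, 7.93 and 7.90 in null liver. The 3 null arrays had an SD of 0.05, and the level was 2.12-fold lower (log2 fold change -1.09, SE 0.09, limma adjusted p = 0.000381).

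Sqle, squalene epoxidase, which adds the first oxygen to squalene, read 7.44, 7.47 and 7.73 in wild-type and 7.04, 7.17 and 7.05 in null liver. The groups did not overlap, but wild-type replicate 3 stood above its group. The log2 fold change of -0.46 (SE 0.10) passed narrowly (limma adjusted p = 0.0427). It was -0.35 within replicates 1 and 2 and -0.68 within replicate 3, and the call was lost whichever of the 6 arrays was left out (adjusted p from 0.0721 to 0.143).

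Fdft1, squalene synthase, read 9.21, 9.17 and 9.26 in wild-type and 8.70, 8.86 and 8.96 in null liver with its brightest probe set. The groups did not overlap, and the log2 fold change of -0.37 (SE 0.09) missed the threshold (limma adjusted p = 0.0662), but passed in 4 of 16 alternative fits, the replicate block among them (adjusted p = 0.0457). The other 3 Fdft1 probe sets above the filter had log2 fold changes of -0.20, 0.10 and -0.18. Lss, which cyclizes oxidosqualene to lanosterol, had a log2 fold change of -0.15 with an interval from -0.34 to 0.05. Ggps1 makes geranylgeranyl diphosphate, the branch used for protein prenylation, and had a log2 fold change of 0.13 with an interval from -0.16 to 0.42.

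The last section strips methyl groups from lanosterol and moves or reduces its double bonds to reach cholesterol. Of 9 members, Cyp51 and Nsdhl fell and 7 did not pass. Cyp51, the lanosterol demethylase, read 7.94, 7.97 and 7.86 in wild-type and 6.77, 6.57 and 6.58 in null liver. Every null array was more than 1 log2 unit below every wild-type array, and the level was 2.44-fold lower (log2 fold change -1.29, SE 0.09, limma adjusted p = 0.000133). Its second probe set above the filter, 1422533_at, gave 5.93, 6.19 and 6.39 against 5.31, 5.32 and 5.15. It was also called over all probe sets (log2 fold change -0.91, adjusted p = 0.013 in limma).

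Nsdhl, the dehydrogenase that works with the sterol oxidase Msmo1 in removing methyl groups, read 8.50, 8.57 and 8.51 in wild-type and 7.49, 7.71 and 7.40 in null liver. The groups stood apart by far more than their spread, and the level was 1.99-fold lower (log2 fold change -0.99, SE 0.10, limma adjusted p = 0.000919). Msmo1 itself read 9.83, 9.97 and 9.99 against 9.87, 9.76 and 9.74. Its arrays overlapped, with a log2 fold change of -0.14 and an interval from -0.34 to 0.06. It was -0.09 within replicates 1 and 2 and -0.25 within replicate 3. Hsd17b7, the ketoreductase of the same demethylation steps, had a log2 fold change of 0.05 and an interval from -0.15 to 0.25.

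Lbr and Tm7sf2 both encode sterol reductases that act after Cyp51, and Lbr is also a protein of the inner nuclear membrane. Lbr read 6.84, 7.06 and 7.29 in wild-type and 6.41, 6.31 and 6.71 in null liver. The groups did not overlap, but each spread widely, and the log2 fold change of -0.59 (SE 0.14) did not pass (limma adjusted p = 0.0617). Lbr was called in 7 of 16 alternative fits, among them the replicate block (adjusted p = 0.0153) and the fit without null replicate 3 (adjusted p = 0.044). Tm7sf2 read 9.50, 9.46 and 9.48 against 9.15, 9.40 and 9.21, lower on every null array but with a log2 fold change of -0.23 (adjusted p = 0.244).

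Ebp, Sc5d and Dhcr7 act on the sterol ring near the end of the pathway. Ebp, the isomerase, read 10.49, 10.53 and 10.47 in wild-type and 10.40, 10.63 and 10.49 in null liver. Its null arrays lay on both sides of the wild-type arrays, and the interval of its log2 fold change ran from -0.19 to 0.21. Sc5d, the desaturase, read 10.78, 10.79 and 10.50 against 10.40, 10.44 and 10.11. Within each replicate pair the null array was lower by about the same amount, -0.36 on the log2 scale in replicates 1 and 2 and -0.39 in replicate 3. Sc5d did not pass (limma adjusted p = 0.169), but was called with the replicate block (adjusted p = 0.0307) and with array weights (adjusted p = 0.0481). Dhcr7, the reductase that yields cholesterol from its dehydro precursor, had a log2 fold change of -0.29 and an interval from -0.59 to 0.01. It was -0.21 within replicates 1 and 2 and -0.45 within replicate 3.

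**Figure D3:**
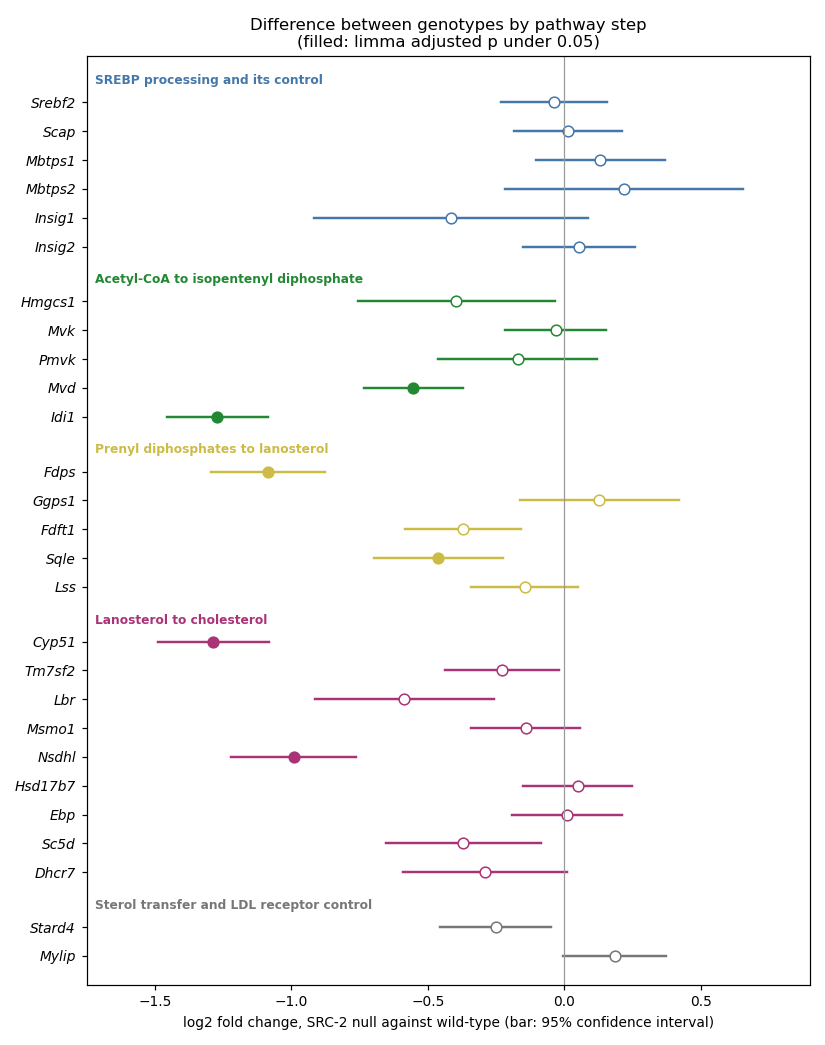
Log2 fold change of SRC-2 null against wild-type liver for 27 members by pathway step, with the 95% confidence interval from limma as a bar (n = 3 arrays in each group); filled circles passed an adjusted p of 0.05. The 6 filled circles lie in the 3 enzyme sections, at -1.29 to -0.46. None stands among the 6 genes that process SREBP-2 or hold it back, while 4.67% of all genes were called.

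None of the 6 genes that process SREBP-2 or hold it back passed limma's test, and at an unadjusted p of 0.05 the count was also 0. Of all genes, 4.67% were called, and at the unadjusted threshold 9.58% were lower and 7.58% higher. With only 6 genes, counts of 0 lie close to those shares. Srebf2 read 7.43, 7.32 and 7.52 in wild-type and 7.39, 7.38 and 7.38 in null liver. The null arrays lay inside the wild-type range, and the interval of the log2 fold change ran from -0.23 to 0.15. The value was 0.01 within replicates 1 and 2 and -0.14 within replicate 3. Its other probe set had a log2 fold change of -0.23 (limma adjusted p = 0.648 over all probe sets). Scap read 9.19, 9.28 and 9.38 against 9.24, 9.28 and 9.36, with an interval from -0.18 to 0.21. Mbtps1 and Mbtps2 had log2 fold changes of 0.13 and 0.22, and for both the value was above 0 within replicates 1 and 2 and -0.04 within replicate 3.

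Insig1 is both an inhibitor of SREBP processing and a target of SREBP-2. It read 7.99, 8.11 and 8.70 in wild-type and 7.49, 7.88 and 8.18 in null liver. Within each replicate number the null array was lower than the wild-type array, but the groups overlapped, since replicate 3 was the highest array of both. The log2 fold change was -0.42 (SE 0.22, limma adjusted p = 0.389), and the call was gained with the replicate block (adjusted p = 0.0442). Insig2, the second such protein, read 9.64, 9.72 and 9.53 against 9.76, 9.68 and 9.61, with a log2 fold change of 0.05 and an interval from -0.15 to 0.26. Whether Insig1 and Insig2 differ in their response was not tested.

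Stard4, a soluble sterol carrier that moves cholesterol between membranes, read 8.23, 8.31 and 8.39 in wild-type and 8.05, 7.97 and 8.15 in null liver. All null arrays were lower, and the log2 fold change of -0.25 did not pass (SE 0.09, limma adjusted p = 0.191). Its other probe sets had log2 fold changes of -0.21 and -0.65 (adjusted p = 0.317 and 0.0831 over all probe sets), and with the mean of all 3 Stard4 was called (adjusted p = 0.0249). Mylip encodes the ubiquitin ligase that sends the LDL receptor to degradation and is a target of liver X receptors. It read 7.03, 6.96 and 6.94 against 7.10, 7.24 and 7.14, and was the only member whose null arrays all lay above the wild-type arrays. Its log2 fold change of 0.18 did not pass (SE 0.08, adjusted p = 0.306 in limma).

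Null and wild-type arrays did not overlap for 13 members on the lower side (48.1%) and for 1 on the higher side (3.7%). Among all genes tested, 12.5% lay apart on the lower and 10.8% on the higher side. These 13 were the 6 called members with Fdft1, Lss, Tm7sf2, Lbr, Sc5d, Dhcr7 and Stard4. For 15 members the 95% interval lay wholly within 1.5-fold in either direction, among them Srebf2, Scap, Insig2, Mvk, Msmo1, Hsd17b7 and Ebp. Such an interval can still exclude 0: those of Fdft1, Tm7sf2 and Stard4, also among the 15, lay wholly below it. Idi1, Fdps, Cyp51 and Nsdhl were called under each of the 16 alternative fits run for them.

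When every probe set was tested on its own, 6 of 50 member probe sets above the filter were lower (12%), beside 1.79% of all 19634 probe sets, and none was higher (0.616% of all, and 2.41% in either direction). These were 2 of Cyp51 and 1 each of Idi1, Fdps, Nsdhl and Mvd. The second Idi1 probe set, 1423804_a_at, read 6.84, 7.03 and 7.81 in wild-type and 6.19, 5.69 and 6.29 in null liver. Its fall was of like size (log2 fold change -1.17) but its wild-type spread was wide, and it did not pass (SE 0.27, limma adjusted p = 0.0805). The single Sqle probe set did not pass in this fit (limma adjusted p = 0.0836).

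Among the members, 13 had several probe sets above the filter, which gave 23 pairs of the brightest with another probe set of the same gene. The difference within a pair was tested for a change with genotype over all 7739 such pairs on the array, of which 0.0775% were called. Of the member pairs, limma called 0, and at an unadjusted p of 0.05 there were 2. In both, the log2 fold change was below 0 for the brightest probe set only. It was 0.00 for the other probe set of Mvd and 0.10 for that of Fdft1. For Mvd the pair's difference shrank from 0.73 in wild-type to 0.18 in null liver, a change of -0.56 (95% interval -0.91 to -0.20, limma adjusted p = 0.779). For Fdft1 and its probe set 1438918_at the change was -0.47 (interval -0.80 to -0.14, limma adjusted p = 0.873). The mean level of 1438918_at was 4.55, close to the filter.

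**Figure D4:**
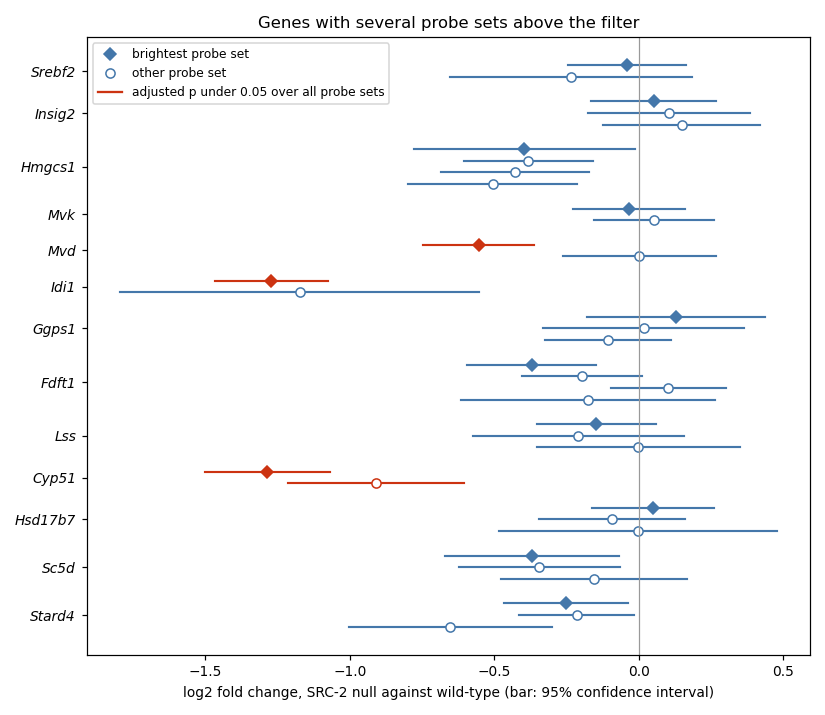
Log2 fold change of each probe set above the filter for the 13 members with several, with the 95% confidence interval as a bar; diamonds are the brightest probe set of a gene, circles the others, and red marks an adjusted p under 0.05 over all probe sets. Both Cyp51 and both Idi1 probe sets lie well below 0, while those of Mvd lie apart at -0.55 and 0.00.

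Other genes around the pathway were read from lists of neighbouring functions, in which 5 of 36 genes tested were called lower and none higher. Of all genes tested, 3.13% were lower. SREBP-1 lipogenesis genes, described below, made up 4 of the 5, and an electron donor was the other 1. With the replicate block 11 were called, beside 6.99% of all genes. Of 8 sterol-responsive or acetyl-CoA supply genes 0 were called in limma (4 lower and 1 higher at an unadjusted p under 0.05), with a median log2 fold change of -0.26. Rdh11, a retinal reductase gene, had the largest difference among them at -0.96 (SE 0.25, adjusted p = 0.0715), and was called with the replicate block (adjusted p = 0.029). Npc2 had the smallest p of this list, with a log2 fold change of -0.33 (limma adjusted p = 0.065) and groups that did not overlap. Acss2, which makes cytosolic acetyl-CoA from acetate, had -0.29 (adjusted p = 0.0879).

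Of 3 electron donors of sterol oxidation measured, Cyb5b, a cytochrome b5 of the outer mitochondrial membrane, fell 1.40-fold (log2 fold change -0.49, SE 0.08, limma adjusted p = 0.00932). Cyb5a, the cytochrome b5 of the endoplasmic reticulum, did not pass (log2 fold change 0.20, adjusted p = 0.221 in limma), though all its null arrays lay above the wild-type arrays. At an unadjusted p under 0.05, 2 electron donors were lower and 1 higher. Cyb5r3, a cytochrome b5 reductase, had -0.32 (limma adjusted p = 0.212) and was called with the replicate block (adjusted p = 0.0499). None of 5 genes for sterol-triggered degradation in the endoplasmic reticulum was called in limma (1 lower at an unadjusted p under 0.05). With the replicate block, Rnf145 of these 5, a ubiquitin ligase gene, was called lower (log2 fold change -0.37, limma adjusted p = 0.0418). With or without the block, limma called 0 of 8 genes of the isoprenoid branches (1 higher at an unadjusted p under 0.05) and 0 of 4 genes of sterol esters and transport (0 at an unadjusted p under 0.05).

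Genes of fatty acid synthesis driven by SREBP-1, the sister factor, were read beside the sterol enzymes. Of 8 measured, Srebf1, Fasn, Elovl6 and Thrsp fell, and the other 4 had log2 fold changes from -0.59 to -0.31 with groups that did not overlap. The median was -0.69, and 7 of 8 were called with the replicate block. Pnpla3 lay below the filter.

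Markers of some other cell types also differed between the genotypes. Of 15 Kupffer cell and macrophage markers 14 fell (15 with the replicate block), with a median log2 fold change of -0.97, and their summed linear level was 5482 to 5724 on the wild-type and 2630 to 2866 on the null arrays. Their wild-type means ran from 5.58 for Timd4 to 10.18 for Csf1r on the log2 scale. Of the adipocyte markers Fabp4 rose 3.31-fold, Retn did not pass, and Adipoq, below the filter, read 2.92, 2.97 and 3.01 in wild-type and 4.88, 4.99 and 5.42 in null liver. Of 7 sinusoidal endothelial markers 0 were called, with a median log2 fold change of -0.02. Lyve1 of these was called higher with the replicate block (limma adjusted p = 0.0145). Of 6 stellate cell markers only Rgs5 was called, higher, and of 3 cholangiocyte markers only Krt19, lower. The summed level of the hepatocyte markers was 108106 to 110331 in wild-type and 108524 to 110854 in null liver. In whole tissue, fewer cells of a type and less RNA per cell cannot be told apart, and the part of these cells in the members' differences was not tested.

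**Figure D5:**
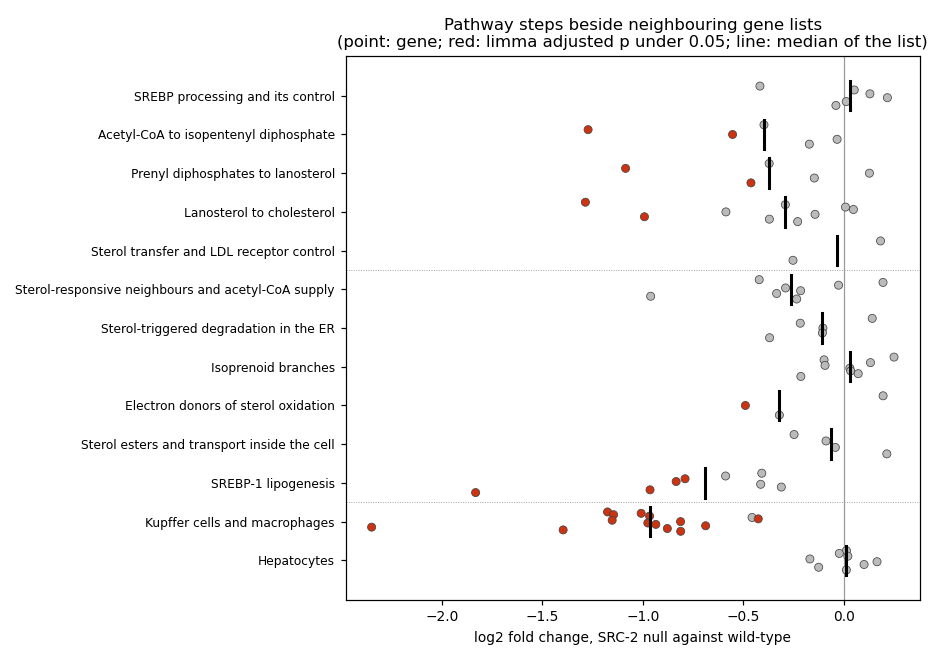
Log2 fold change of each gene (point) in the 5 pathway sections, 6 neighbouring lists and 2 marker lists, with the median of each list as a black line and genes of an adjusted p under 0.05 in red. The medians of the 3 enzyme sections lie at -0.40, -0.37 and -0.29, that of the SREBP processing genes at 0.03 and that of the Kupffer cell markers at -0.97.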

How the data were processed

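Total RNA of flash-frozen liver was labelled with biotin and hybridised to short oligonucleotide arrays, per the labels. The authors deposited log2 values made with RMA, per the submitters' processing notes; no source used here gives its version or a genome build. RMA compresses differences near the low end of its range (1.83 to 14.6 here). Probe sets were named from the platform annotation, which can be old: 34958 of 45101 had exactly 1 symbol, 932 had several and 9211 had none listed. For each of 18194 named genes the brightest probe set on average was kept, and the 11895 with a mean at or above 4.21 were tested with limma 3.58.1 under R 4.3.3 (lmFit and eBayes, two-sided tests) on all 6 arrays with a single genotype term. A second fit tested 19634 probe sets singly. Figures were drawn with matplotlib 3.10.9.

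Groups and replicate numbers came from the titles. Nothing says that arrays are separate animals, so the p-values cover the spread between these 6 samples alone, and that spread may be technical; the number of arrays limits the precision. No 2 arrays held identical values. Same-numbered arrays deviated together (correlations across genes of 0.18, 0.203 and 0.517 for replicates 1, 2 and 3), so a fit with the replicate number as a block is given where it changes a call. Wild-type replicate 1 and null replicate 2 correlated at 0.206, so the pairing comes mainly from replicate 3. Members, lists, filter and alternatives were chosen with earlier results of these data known. The genes named were Ncoa2, each member and, of each neighbouring list, at most 4 genes with the smallest p and any called; the cell type markers and Pnpla3 were named after their values were seen. March6 was read as Marchf6, its present symbol. Alternatives changed the scaling, the filter, the choice of probe set, the variance model, the arrays used and the replicate block. The code was tested on simulated data.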

Additional observations from a re-analysis of the deposited data

How the results depend on the processing

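Idi1, Fdps, Cyp51 and Nsdhl kept their direction and their call under all 16 alternatives; with the mean of all probe sets the log2 fold change of Fdps shrank to -0.50, since its second probe set is dim. Of the members' log2 fold changes under the alternatives, 387 kept their direction and call, 16 gained a call, 10 lost one and 16, in 7 members, changed sign. Of these 7 members, Mvd alone was called in the first place: its log2 fold change was 0.0025 when probe sets without _s_at, _x_at or _a_at endings came first, which takes its other probe set. The same choice gave -0.093 for Hsd17b7. The mean of all probe sets gave -0.041 for Ggps1, -0.030 for Hsd17b7, 0.0096 for Mvk and -0.071 for Scap. Array weights gave 0.019 and replicates 1 and 2 only gave 0.011 for Srebf2, and arrays shifted to the same median gave -0.0033 for Ebp. Leaving out 1 array at a time gave -0.052 to 0.063 for Ebp, -0.0015 to 0.092 for Hsd17b7, -0.067 to 0.0027 for Mvk, -0.033 to 0.060 for Scap and -0.091 to 0.011 for Srebf2. With the replicate block the number of members called was 10, of genes around the pathway called 11 (5 without it) and of probe set pairs called 16 (6 without it), while all genes called rose from 556 to 832 and those lower from 372 to 525; with the array weights, member probe sets called were 10, genes around the pathway 12, all genes 985 and genes lower 580 (556 and 372 without weights). An intensity trend in the prior variance gave 13 genes around the pathway, of which 1, an electron donor, was higher, and a filter at 6 gave 9. In replicates 1 and 2 only, all genes called numbered 329 and those lower 234. At an adjusted p under 0.01, 5 members, 242 genes and 184 lower genes were called. Leaving out 1 array at a time gave 5 to 6 members, 4 to 6 member probe sets, 5 to 7 genes around the pathway, 275 to 438 genes, 210 to 315 lower genes, 0 to 2 probe set pairs, members' medians of -0.24 to -0.18 and an Ncoa2 log2 fold change of -2.60 to -2.20. The replicate block changed no other member's call. The 3 arrays in each group limit the precision.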

Other observations

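Member probe sets below the filter were not tested. Of these 9, 1422534_at for Cyp51 read 3.56, 3.62 and 3.63 in wild-type and 2.97, 3.43 and 3.20 in null liver, and 1441536_at for Hmgcs1 read 3.62, 3.67 and 4.17 against 3.52, 3.52 and 3.49; in both every null array was lower. The dim probe set of Fdps, 1438150_at, read 2.64, 2.67 and 2.72 against 3.11, 2.62 and 2.55, so its arrays overlapped.

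Among the members, wild-type replicate 3 was the highest wild-type array for 16 of 27 and null replicate 3 the highest null array for 12. The spread among wild-type arrays ranged from an SD of 0.017 for Tm7sf2 to an SD of 0.398 for Mbtps2.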
